A study of Mus musculus with 30 samples.

Results

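The genes of MHC class I presentation were followed in RNA-sequencing counts of mouse microglia. They were chosen by name: the rows of the gene count table named H2-K1, H2-D1, H2-Q4, H2-Q6, H2-Q7, H2-T23, B2m, Tap1, Tap2 and Tapbp. All 10 were found among the 54532 genes of the table, and all 10 passed the filter on low counts in every comparison below. The study asked how microglia obtained in different ways compare, and how each preparation responds to HMGB1, a nuclear protein that acts as a danger signal once outside the cell. There were 30 libraries in 10 groups, a Control and an HMGB1 group of 3 libraries for each of 5 protocols, all from C57/B6 mice. In Protocol 1A, neonatal brain cells of postnatal days 0 to 3 were grown as mixed glia with 0.5 ng/ml GM-CSF for 10 days before the microglia were shaken off and plated without serum. Protocol 1B was the same without GM-CSF, and Protocol 1C the same as 1A with 21 days of culture. Protocol 2 used adult mice of 6 to 8 weeks, whose adherent cells spent 7 days in medium with 100 ng/ml M-CSF and as much GM-CSF. Protocol 3 used adult mice of 6 to 8 weeks whose CD11b+ cells were taken on beads and used with no culture period. The HMGB1 groups were exposed for 4 hours, and the study's methods give a dose (1 µg/ml) for Protocol 3 only. Neonatal suspensions were pooled from 5 mice, with a litter of its own for each replicate, and in Protocol 2 brains of 3 mice were pooled. Age, purification, growth factors and culture time change together between Protocols 1, 2 and 3, so their parts in a difference cannot be told apart.

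MHC class I molecules show peptides from inside the cell to CD8 T cells. A heavy chain (H2-K1 and H2-D1 encode the classical chains H-2K and H-2D) pairs with the small invariant chain beta-2 microglobulin, encoded by B2m, and with a peptide that the transporter made of TAP1 and TAP2 has moved into the endoplasmic reticulum. Tapasin, encoded by Tapbp, holds the empty heavy chain at the transporter until a peptide is bound. H2-T23 encodes the non-classical chain Qa-1, and H2-Q6 and H2-Q7 belong to the Qa-2 group of non-classical chains, as near neighbours of H2-Q4. In resting brain tissue class I is known to be low, and interferons are known to raise it, partly through the transactivator NLRC5 and the factors IRF1 and NF-kappaB.

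Of the 10 genes, 9 lie on chromosome 17 and B2m lies on chromosome 2. The positions below are those of the table, which match GENCODE M21 (GRCm38) for 98.26% of 54409 shared identifiers and for 8 of the 10 genes. H2-K1 is at chr17:33996017-34000333 on the minus strand, with H2-T23 also on the minus strand at chr17:36029773-36032855. H2-D1 (chr17:35262730-35267499), H2-Q4 (chr17:35379617-35385290), H2-Q6 (chr17:35424850-35430055) and H2-Q7 (chr17:35439155-35443773) lie on the plus strand. So do Tapbp (chr17:33915899-33929288), Tap1 (chr17:34187553-34197225), Tap2 (chr17:34203527-34216321) and B2m (chr2:122147686-122153083). The first bases of Tap1 overlap those of Psmb9, an immunoproteasome subunit on the other strand, over 212 bases. Zbtb22, on the same strand as Tapbp, overlaps it over 3421 bases and had 261 to 884 counts per library. Other overlaps are with genes on the opposite strand. Patl2 overlaps B2m (5398 bases, 0 to 43 counts), and Gm15821 and Gm20496 overlap Tap2 (3148 and 1923 bases, 0 to 85 and 0 to 29 counts). Gm11131 overlaps H2-Q4 (676 bases, 8 to 114 counts), A930015D03Rik H2-T23 (3083 bases, 0 to 19) and Gm19412 Tapbp (1011 bases, 0 to 5). Whether the counting used strand is not given in the sources used here, so the division of reads between such neighbours is uncertain.

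The upstream sequences of 9 of the 10 genes were read from RefSeq (GRCm38.p6), as the 250 bases before each start site; for Tap2 no entry was found. They are shown as a description of the genes, and 5 heavy chains carry nearly the same pair of elements. The part of these elements in the response to HMGB1 was not tested. Each stretch runs 5′ to 3′ on the gene's own strand. In the first 5, the first capitals mark a kappaB-like match (GGGA and CC with any 4 bases between them, on either strand, joined where matches overlap) and the second an IRF-like match (GAANNGAAA, here on the opposite strand):
H2-K1: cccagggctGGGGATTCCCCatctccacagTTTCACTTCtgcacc
H2-D1: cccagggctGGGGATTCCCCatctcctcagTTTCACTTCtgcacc
H2-Q4: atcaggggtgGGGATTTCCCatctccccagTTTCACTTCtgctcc
H2-Q6: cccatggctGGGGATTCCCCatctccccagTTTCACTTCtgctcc
H2-Q7: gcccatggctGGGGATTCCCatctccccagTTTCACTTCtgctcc
In the next pair the capitals mark an interferon-stimulated response element match (a pair of GAAA runs with any 2 bases between them, on the opposite strand in H2-T23) and, in B2m, a kappaB-like match after it:
H2-T23: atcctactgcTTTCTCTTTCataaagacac
B2m: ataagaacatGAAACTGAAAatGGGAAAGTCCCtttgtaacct

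These stretches begin 134 (H2-K1), 180 (H2-D1), 183 (H2-Q4), 182 (H2-Q6), 143 (H2-Q7), 134 (H2-T23) and 149 (B2m) bases before the RefSeq start site. In genome order they are chr17:34000423-34000467, chr17:35262914-35262958, chr17:35379434-35379478, chr17:35424668-35424712, chr17:35439012-35439056, chr17:36032806-36032835 and chr2:122147538-122147580. Both strands of all 32851 windows of the same length were searched. The kappaB-like letters were found in 6 of the 9 windows of these genes (all but H2-T23, Tap1 and Tapbp) and in 17.6% of all windows. The IRF-like letters were in the 5 heavy chains above and in 6.31% of all windows, and the response element was in H2-T23 and B2m and in 2.98% of all windows. The full 11-base run of the class I enhancer A, as capitalised in H2-K1, was in H2-K1, H2-D1 and H2-Q6 and in 0.03% of all windows (10 windows of 9 genes). The gamma-interferon element TTCNNNGAA was in 0 of the 9 windows and in 7.02% of all. CCAAT was in all 9 and in 33.9% of all. The RefSeq start lies 364 bases from the start the table gives for H2-D1, 154 for H2-T23 and 3579 for Tapbp, so the windows of these 3 genes fall wholly (H2-D1, Tapbp) or partly (H2-T23) inside the gene as the table draws it. A match of letters is a description of the window and does not show that a factor binds there.

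Total counts ran from 14151983 to 28564757 per library. The 10 microglial markers were all found in every group except that Siglech was at 0 in the HMGB1 libraries of Protocol 1B, and their summed level ran from 1530 to 5216 CPM, the count as a share of the scaled library total. Markers of other cells were also present and differed between protocols: the summed level ran from 170 to 915 CPM for 7 genes of border macrophages and monocytes, 25.1 to 178 for 4 of oligodendrocytes, 7.02 to 75.1 for 5 of astrocytes and 0.108 to 5.49 for 4 of neurons (sums of other lists stand beside the comparisons below). No library was a copy of another of its own group, and copies between groups were not looked for. Levels below are CPM after TMM scaling over all 30 libraries, as mean ± SD of 3 libraries. In bulk libraries fewer cells of a type and less RNA per cell cannot be told apart.

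In the neonatal cultures HMGB1 raised nearly the whole pathway, and in the adult cells none of it passed the test. In Protocol 1A, 9 of the 10 genes were called higher, where 29.7% of all genes tested were called higher, and 0 were called lower (31.6% of all genes). The exception was H2-T23. In Protocol 1B all 10 were called higher, against 29.8% of all genes, and in Protocol 1C all 10, against 28.4%. In 1B and 1C, 32% and 31.8% of all genes were called lower. The 3 HMGB1 libraries lay above the 3 Control libraries for all 10 genes in each of the neonatal protocols, a pattern found for 33.1%, 32.3% and 31.2% of all genes in 1A, 1B and 1C. The median log2 fold change of the 10 genes was 1.52 in 1A, 2.67 in 1B and 1.95 in 1C, while the median over all genes was -0.038, -0.021 and -0.039. In the edgeR quasi-likelihood test of Protocols 2 and 3, 0 of the 10 genes were called in either direction, 0 had an unadjusted p under 0.05, and DESeq2 called 0. Of all genes, 1.21% were called higher and 0.283% lower in Protocol 2, and 0.123% higher and 0% lower in Protocol 3. Over the 10 genes the 95% intervals of the log2 change lay within -0.34 to 0.72 in Protocol 2 and -0.34 to 0.32 in Protocol 3. With the replicate number as a block, which the libraries of Protocol 2 bear out, H2-Q6 passed in Protocol 2 (log2 fold change 0.23, adjusted p = 0.000149, edgeR), so that 1 of the 10 was called higher. The count in Protocol 1A rests on single libraries: without Control replicate 2 it was 4, and without HMGB1 replicate 1 it was 5, both from the edgeR fit of 5 libraries. Endothelial markers moved with the neonatal response: the summed level of the 8 listed genes was 28.3 to 49.4 CPM in Controls and 68.5 to 109 CPM with HMGB1 in 1A, 15.1 to 19.4 and 41.1 to 71.9 CPM in 1B, and 44.0 to 59.1 and 204 to 305 CPM in 1C. Flt1 and Kdr, the receptors of vascular growth factor, were called higher in all 3, with Cdh5 in 1C, of 3, 4 and 4 genes tested. Cldn5 was at 0 in the Controls of all 3 and Slco1a4 in those of 1A and 1C. Oligodendrocyte markers summed to 80.1 to 87.4 CPM in Controls of 1A and 31.9 to 40.0 CPM with HMGB1, and to 67.8 to 71.7 and 25.1 to 61.7 CPM in 1B. The 3 genes tested in each went both ways, with log2 changes from -1.53 to 1.61 in 1A and from -1.09 to 0.91 in 1B. Astrocyte markers summed to 28.0 to 38.9 CPM in Controls of 1A and 48.3 to 55.6 CPM with HMGB1, and to 28.1 to 29.9 and 39.2 to 50.8 CPM in 1C, and 3 genes of 3 tested in 1A and 3 of 5 in 1C were called higher. The part of these cells in the class I response was not tested.

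**Figure D1:**
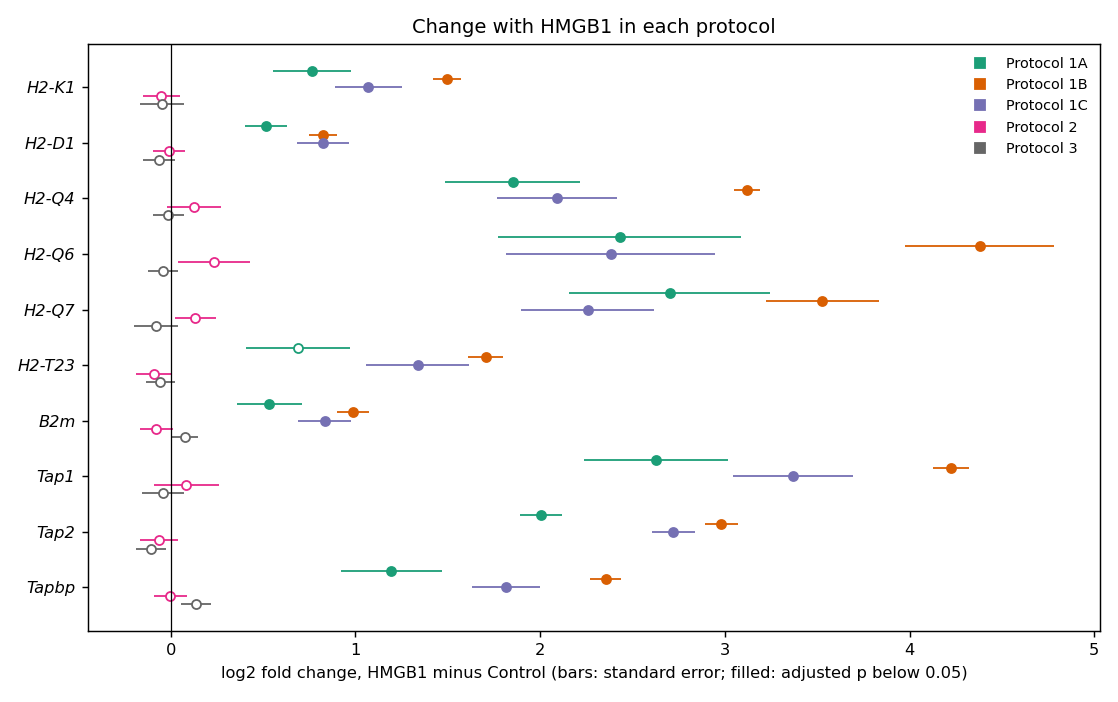
Log2 fold change of HMGB1 over Control (x axis, bars are standard errors) for each gene (y axis) in the 5 protocols, from the edgeR fit of the 6 libraries of each protocol; filled points passed adjusted p below 0.05. Points of Protocols 1A, 1B and 1C lie right of 0 for every gene, from 0.52 to 4.38, and those of Protocols 2 and 3 lie between -0.11 and 0.23.

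Tap1, a subunit of the peptide transporter, had the largest log2 change of the 10 genes in Protocol 1C (3.37) and was next to the largest in 1A and 1B. It was at 39.4, 35.2 and 33.1 CPM in the 3 Control libraries of Protocol 1B and at 616, 734 and 655 CPM with HMGB1. This is a 18.7-fold rise (log2 4.22 ± 0.10, adjusted p = 1.75e-10). In Protocol 1A its Control libraries were at 50.8, 76.0 and 129 CPM and its HMGB1 libraries at 503, 545 and 551 CPM, a 6.17-fold rise. The spread was wide among the Controls and narrow after HMGB1, and the groups did not overlap. In Protocol 1C the levels went from 91.2, 64.1 and 147 CPM to 938, 1026 and 1144 CPM, a 10.3-fold rise and the highest Tap1 level of the 10 groups. Protocol 2 lay between the neonatal Control and HMGB1 levels, at 205, 282 and 273 CPM in Controls and 216, 289 and 304 CPM with HMGB1. Protocol 3 was at 103, 127 and 93.2 CPM and 110.5, 112 and 88.2 CPM. The Control and HMGB1 values of both adult protocols overlapped.

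Tap2, the other subunit of the transporter, rose by less, with little spread among the HMGB1 libraries. It was at 30.1, 33.9 and 43.2 CPM in Controls of Protocol 1A and at 149.6, 148 and 139 CPM with HMGB1 (log2 2.01 ± 0.11, adjusted p = 1.16e-07). Protocol 1B went from 28.1, 27.2 and 22.5 to 201, 209.8 and 202 CPM, and Protocol 1C from 35.3, 31.4 and 43.2 to 233, 246 and 242 CPM. The HMGB1 libraries of the 3 neonatal protocols thus stood in the order 1C, 1B, 1A with no overlap between neighbours. In Protocol 2 Tap2 was at 58.5, 68.5 and 72.8 CPM in Controls and 55.4, 67.3 and 69.2 CPM with HMGB1. In Protocol 3 it was at 43.3, 43.6 and 43.6 CPM and 41.4, 42.0 and 36.7 CPM. The Protocol 3 groups did not overlap, with HMGB1 lower, the only gene of the 10 with such a gap in an adult protocol (6.6% of all genes were lower without overlap), but the change of -0.11 ± 0.081 on the log2 scale did not pass the test (adjusted p = 0.995).

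Tapbp, the tapasin gene, rose 2.29-fold in Protocol 1A, 5.11-fold in 1B and 3.52-fold in 1C. Its Control libraries were at 210.1, 249 and 216 CPM in Protocol 1B and its HMGB1 libraries at 1129, 1189 and 1123 CPM. In Protocol 1A the Controls covered 343 to 669 CPM and the HMGB1 libraries 1076 to 1238 CPM, and in 1C 346 to 611 and 1530.0 to 1766 CPM. After HMGB1 all neonatal groups were therefore above the adult groups, which lay at 840.0 to 1042 CPM (Control) and 869.6 to 1016 CPM (HMGB1) in Protocol 2, and at 149 to 174 and 158 to 194 CPM in Protocol 3. The call in 1A was lost when any 1 of 4 libraries was left out (Control replicate 2 and each HMGB1 replicate).

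B2m, the invariant chain, was per length the most abundant of the 10 in every group, and its folds were among the smallest. Its Controls were at 1801, 1994 and 2699 CPM in Protocol 1A, 1298, 1313 and 1148 CPM in 1B and 2531, 1926 and 2818 CPM in 1C. With HMGB1 they were at 3074, 2825 and 3658 CPM, 2453, 2677 and 2290.0 CPM and 4132, 4023 and 4759 CPM. These are rises of 1.45-fold, 1.98-fold and 1.78-fold (adjusted p = 0.0413, 2.48e-06 and 0.000353, edgeR), and the call in 1A did not survive the removal of Control replicate 2 or of replicate 1 or 3 of the HMGB1 group. In Protocol 2 B2m was at 3543, 4225 and 4190.5 CPM in Controls and 3434, 3890.4 and 4060.3 CPM with HMGB1. In Protocol 3 it was at 1227, 1253 and 1155 CPM and 1231, 1262 and 1296 CPM. Both pairs of groups overlapped.

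Of the classical heavy chains, H2-K1 had a larger fold than H2-D1 in each neonatal protocol. H2-K1 was at 594, 644 and 558 CPM in Controls of Protocol 1B and 1707, 1704 and 1636 CPM with HMGB1, a 2.82-fold rise (adjusted p = 3.38e-08). In Protocol 1A it went from 1009, 1172 and 1643 CPM to 2101, 1980.3 and 2519 CPM, 1.70-fold, a call that was lost without Control replicate 2 or HMGB1 replicate 1. In Protocol 1C it went from 1195, 959 and 1665 CPM to 2515, 2503 and 2959.7 CPM, 2.10-fold. None of these groups overlapped. H2-D1 rose 1.43-fold in 1A, 1.77-fold in 1B and 1.77-fold in 1C, with Controls at 1569, 1441 and 1337 CPM and HMGB1 libraries at 2669, 2529 and 2459 CPM in 1B. In Protocol 2 H2-K1 was at 2752 to 3393 CPM in Controls and 2649.7 to 3339 CPM with HMGB1, and H2-D1 at 3281 to 3886 and 3260.3 to 3854 CPM. In Protocol 3 H2-K1 was at 1115 to 1400.0 and 1017 to 1446 CPM, and H2-D1 at 1615 to 1875 and 1487 to 1838 CPM. The 95% intervals of the log2 change in the adult protocols ran from -0.27 to 0.17 (H2-K1, Protocol 2) and from -0.31 to 0.22 (H2-K1, Protocol 3), so a change of the size seen in Protocol 1B lay outside them.

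The non-classical chains of the Q region had low Control levels in the neonatal cells and log2 changes there of 1.85 to 4.38. H2-Q6 was nearly silent in Controls of Protocol 1B, with 10, 2 and 7 counts in the 3 libraries (0.472, 0.0826 and 0.356 CPM), and stood at 6.78, 5.75 and 6.20 CPM with HMGB1. The fitted rise was 4.38 ± 0.40 on the log2 scale (adjusted p = 4.20e-06), and with so few counts its size is loose. In Protocol 1A H2-Q6 went from 3.09, 4.03 and 10.3 CPM to 24.2, 20.2 and 49.8 CPM, and in 1C from 16.2, 6.56 and 27.7 CPM to 75.4, 69.8 and 116 CPM. In each of these 4 groups replicate 3 was the highest library. The 1A call was lost without any of 5 libraries (all but Control replicate 3), and the 1C call without Control replicate 1 or HMGB1 replicate 3. In Protocol 2 H2-Q6 was at 118, 168 and 155 CPM in Controls and 136, 182 and 201 CPM with HMGB1, an overlap although each HMGB1 value was above the Control of the same number. In Protocol 3 it was at 224, 225 and 207 CPM and 235, 211 and 185 CPM.

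H2-Q7 had 11, 11 and 9 counts in the Controls of Protocol 1B (0.519, 0.454 and 0.457 CPM) and rose to 7.14, 4.33 and 5.20 CPM (log2 3.53 ± 0.31). It rose 6.50-fold in 1A, from 2.42, 2.77 and 7.67 to 26.9, 19.9 and 36.7 CPM, and 4.78-fold in 1C, from 11.7, 6.83 and 18.2 to 49.0, 58.3 and 67.7 CPM. H2-Q4 was per length the most abundant of the Q chains in the neonatal cells. It went from 23.2, 23.8 and 21.5 CPM to 206, 191 and 197 CPM in 1B (8.69-fold, adjusted p = 1.75e-10), rose 3.61-fold in 1A and 4.26-fold in 1C. The 1A call of H2-Q4 was lost without Control replicate 2. In the adult protocols the 2 genes overlapped between Control and HMGB1, H2-Q4 at 294 to 374 and 308 to 443 CPM in Protocol 2 and 334 to 370.0 and 306 to 387 CPM in Protocol 3, and H2-Q7 at 80.5 to 109 and 95.4 to 113 CPM and at 54.6 to 59.7 and 41.5 to 60.6 CPM. The Q genes are near copies: of the 100-base windows along their transcripts, 11.98% of H2-Q7, 10.8% of H2-Q6 and 2.16% of H2-Q4 occur letter for letter in another gene, and at 50 bases 26.4%, 32.0% and 21.8%. How the authors' counting treated reads that map to more than 1 place is not given in the sources used here, so the split between these genes is uncertain.

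H2-T23, the Qa-1 chain, which is read by inhibitory receptors of NK cells, rose 3.26-fold in Protocol 1B, from 102, 121 and 102 CPM to 333, 384 and 336 CPM. In Protocol 1C it went from 295, 193 and 416 CPM to 673, 716 and 883 CPM, 2.53-fold, a call lost without Control replicate 1. In Protocol 1A it was at 189, 229 and 362 CPM in Controls and 409, 386 and 478 CPM with HMGB1. The 1A groups did not overlap, but the fold of 1.61 did not pass (adjusted p = 0.0975, edgeR), and it did in DESeq2 (adjusted p = 0.0342) and in an edgeR fit of all 30 libraries (adjusted p = 0.00937). Protocol 2 was at 711 to 887 CPM and 675 to 810.4 CPM, and Protocol 3 at 113 to 131 and 108 to 123 CPM.

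**Figure D2:**
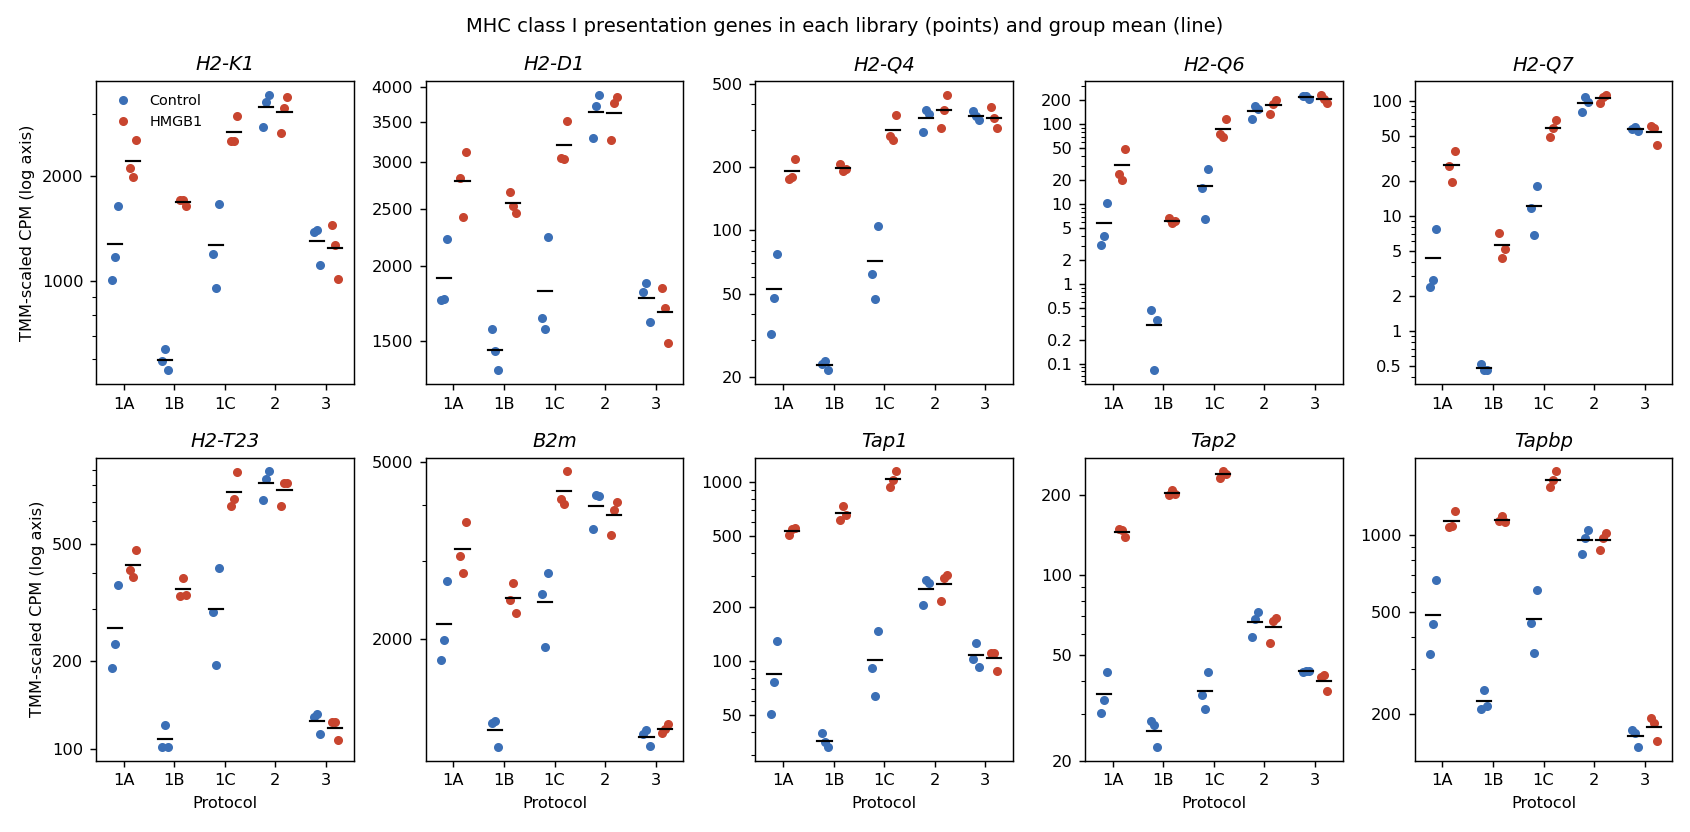
Level of each gene in every library, as TMM-scaled CPM on a log axis (y axis), by protocol (x axis), with Control in blue, HMGB1 in red and a line at the mean of 3 libraries. In Protocols 1A, 1B and 1C the red points lie above the blue points in all 10 panels, and in Protocol 1B the Control points of H2-Q6 and H2-Q7 lie below 1 CPM.

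The difference between the protocols was itself tested in a fit of all 30 libraries. All 10 genes responded less in Protocol 2 than in Protocol 1 (the average over its variants), where 20.6% of all genes had a lower and 22.9% a higher response. The same count held for Protocol 3 against Protocol 1, with 22.5% of all genes lower and 20.2% higher. These comparisons share the Protocol 1 libraries. For Tap1 the difference in log2 response was -3.32 ± 0.32 for Protocol 2 and -3.47 ± 0.32 for Protocol 3, and for H2-D1 it was -0.73 ± 0.14 and -0.80 ± 0.14. Between Protocols 3 and 2, edgeR called 0 of the 10, with 0 at an unadjusted p under 0.05 and 0 in DESeq2 (0.022% of all genes were higher and 0.346% lower). The intervals for H2-K1 and Tap2 in that comparison were -0.53 to 0.50 and -0.39 to 0.26, and the widest, for H2-Q6, was -1.39 to 0.80.

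Within the neonatal protocols the response without GM-CSF (1B) was stronger than with it (1A) for 4 of the 10 genes: Tap2, by 0.95 ± 0.16 on the log2 scale, Tapbp by 1.13 ± 0.25, Tap1 by 1.57 ± 0.38 and H2-Q4 by 1.24 ± 0.36. Of all genes, 3.7% had a higher and 3.21% a lower response in 1B, and all 10 estimates were above 0. H2-K1 (0.70, adjusted p = 0.0984) and H2-T23 (0.99, adjusted p = 0.0539) did not pass. The count was 7 in DESeq2. The call of H2-Q4 (adjusted p = 0.0409) was lost when any 1 of 10 of the 12 libraries was left out. Longer culture (1C against 1A) gave a stronger response of 1 gene, Tap2 (0.68 ± 0.16, adjusted p = 0.00288), where 5.46% of all genes had a higher and 8.53% a lower response. Without Control replicate 1 of 1A the count was 2, and without Control replicate 3 of 1C it was 4.

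The Control cells differed between protocols before any HMGB1. The 3 comparisons between Protocols 1, 2 and 3 share their Control libraries. Against the acutely isolated cells of Protocol 3, the adult cultures of Protocol 2 were called higher for 7 of the 10 genes and lower for 0 (unadjusted p under 0.05 for 7 genes, all higher, and DESeq2 also called 7 higher and 0 lower). Of all genes 40.1% were higher and 37.2% lower. The largest difference was that of H2-T23, at 711, 836 and 887 CPM in Protocol 2 and 128, 131 and 113 CPM in Protocol 3, a 6.16-fold difference (adjusted p = 5.33e-06). Tapbp was 5.45-fold and B2m 3.10-fold higher in Protocol 2, followed by H2-K1 (2.27-fold), Tap1 (2.22-fold), H2-D1 (1.94-fold) and Tap2 (1.44-fold). The Q chains did not pass: the log2 differences were -0.12 ± 0.31 for H2-Q4, -0.66 ± 0.43 for H2-Q6 and 0.67 ± 0.34 for H2-Q7. In a fit of these groups alone H2-Q6 was called lower in Protocol 2 (118 to 168 CPM against 207 to 225 CPM, no overlap) and H2-Q7 higher (80.5 to 109 against 54.6 to 59.7 CPM). Markers of other cells moved with this comparison. The summed level of 8 fibroblast and mural markers was 197 to 310 CPM in Protocol 2 and 18.9 to 26.1 CPM in Protocol 3, with 7 called higher in Protocol 2 and 0 lower. The 7 neutrophil markers summed to 22.6 to 25.0 CPM in Protocol 2, where S100a9, Ngp and Retnlg were at 0, and to 347 to 736 CPM in Protocol 3, and the 8 endothelial markers to 61.5 to 64.9 and 129 to 145 CPM. Astrocyte markers summed to 49.6 to 64.5 CPM in Protocol 2 and 7.02 to 10.2 CPM in Protocol 3, oligodendrocyte markers to 91.6 to 173 and 51.9 to 60.5 CPM, and the microglial markers to 2661 to 3102 and 4732 to 4904 CPM. Border macrophage and monocyte markers summed to 299.7 to 330.5 CPM in Protocol 2 and 179 to 185 CPM in Protocol 3. The 10 lymphocyte markers summed to 18.1 to 21.5 CPM in Protocol 2 and 9.58 to 14.1 CPM in Protocol 3. Genes of a list did not all move with its sum. The log2 differences ran from -9.64 to 2.28 among microglial and from -14.9 to 2.36 among neutrophil markers. They ran from -6.05 to 1.84 among border macrophage and monocyte markers and from -8.70 to 2.84 among the 5 lymphocyte markers tested. The part of these cells in the class I differences was not tested.

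The neonatal Controls, averaged over the 3 neonatal protocols, were below Protocol 2 in all 10 genes (30.7% of all genes were lower and 24.6% higher). The log2 difference ran from -1.01 ± 0.10 for Tap2 to -5.56 ± 0.40 for H2-Q6. No library of Protocol 1 reached the lowest library of Protocol 2 in any of the 10, a pattern of 20.1% of all genes. The fibroblast and mural markers moved with this difference, at 2.30 to 97.2 CPM in the neonatal Controls and 197 to 310 CPM in Protocol 2, with 8 of 8 called lower in Protocol 1. Endothelial markers summed to 15.1 to 59.1 and 61.5 to 64.9 CPM (6 of 8 called lower), astrocyte markers to 20.1 to 42.3 and 49.6 to 64.5 CPM, and microglial markers to 1530 to 2263 and 2661 to 3102 CPM. Border macrophage and monocyte markers had a higher sum in the neonatal Controls, at 524 to 915 against 299.7 to 330.5 CPM. Single genes went both ways. The log2 differences ran from -3.15 to 1.92 among microglial and from -2.72 to 2.94 among border macrophage and monocyte markers. The part of these cells was not tested. Against Protocol 3 the picture was mixed. B2m, H2-T23 and Tapbp were higher in the neonatal Controls, 6 genes were lower, and H2-D1 did not pass (-0.10 ± 0.10, adjusted p = 0.362), where 37.3% of all genes were higher and 42.9% lower. Tapbp was 2.18-fold, H2-T23 1.58-fold and B2m 1.49-fold higher. The Q chains lay far below the acute cells, with log2 differences of -3.05 ± 0.23 for H2-Q4, -4.34 ± 0.31 for H2-Q7 and -6.22 ± 0.39 for H2-Q6. In libraries, H2-Q6 was at 224, 225 and 207 CPM in Protocol 3 and at most 27.7 CPM in any neonatal Control. H2-K1 (-0.45), Tap1 (-0.73) and Tap2 (-0.48) were lower by less, and the calls of H2-K1 and Tap1 were lost in a fit without Protocol 2 (adjusted p = 0.0999 and 0.088, edgeR). The H2-K1 call was also lost without replicate 1 of 1C or replicate 1 or 2 of Protocol 3. That of H2-T23 was lost without replicate 1 or 3 of Protocol 3, and that of Tap1 without replicate 2 of 1A, replicate 2 or 3 of 1B, replicate 1 of 1C or replicate 1 or 2 of Protocol 3. The neutrophil markers summed to 2.19 to 60.8 CPM in the neonatal Controls and the endothelial markers to 15.1 to 59.1 CPM, each below Protocol 3, as was the sum of the microglial markers (1530 to 2263 against 4732 to 4904 CPM). Other sums were higher in the neonatal Controls. Border macrophage and monocyte markers were at 524 to 915 against 179 to 185 CPM. Astrocyte markers were at 20.1 to 42.3 against 7.02 to 10.2 CPM, and oligodendrocyte markers at 67.8 to 175 against 51.9 to 60.5 CPM. The log2 differences of single genes ran from -13.6 to 1.77 among neutrophil and from -12.5 to 0.27 among microglial markers. They ran from -5.09 to 2.78 among border macrophage and monocyte and from -2.90 to 4.84 among astrocyte markers. The part of these cells was not tested.

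Controls grown without GM-CSF were lower in the whole pathway. Those of 1B were below those of 1A for all 10 genes, where 12.6% of all genes were lower and 18.2% higher, and the libraries of the groups did not overlap for any of the 10 (21.1% of all genes were lower without overlap). The differences were largest for H2-Q6 (-4.22 ± 0.97 on the log2 scale, from counts of 10, 2 and 7 in 1B) and H2-Q7 (-3.09 ± 0.69). Next came H2-T23 (-1.23), Tap1 (-1.20), H2-Q4 (-1.15), Tapbp (-1.07) and H2-K1 (-1.05), and B2m (-0.75), Tap2 (-0.42) and H2-D1 (-0.36) differed least. The call count was 6 without Control replicate 3 of 1A, the highest library of that group for every gene, and 6 without Control replicate 3 of 1B, as H2-D1, H2-Q4, Tap1 and Tap2 dropped out in both. H2-Q4 and Tap1 were also lost in a fit of the groups compared alone (adjusted p = 0.0639 and 0.0718, edgeR, 8 genes called), without replicate 1 of 1B (0.0644 and 0.0609, 8 called) and, with H2-D1, without replicate 2 of 1B (0.0567, 0.0743 and 0.0683, 7 called). The 3 Controls of 1A ran over a wider range (189 to 362 CPM for H2-T23) than those of 1B (102 to 121 CPM). Markers of lymphocytes (10 genes) summed to 3.12 to 5.28 CPM in 1A and 32.7 to 51.3 CPM in 1B, where Cd3e, Cd3d, Cd8a, Nkg7 and Ncr1 were at 0. Neutrophil markers summed to 43.0 to 60.8 CPM in 1A, where Retnlg was at 0, and 2.19 to 4.24 CPM in 1B, where S100a9, Ltf and Retnlg were at 0, and fibroblast and mural markers to 2.30 to 3.77 CPM in 1A and 27.4 to 90.4 CPM in 1B. Endothelial markers summed to 28.3 to 49.4 CPM in 1A and 15.1 to 19.4 CPM in 1B, and border macrophage and monocyte markers to 524 to 549.7 and 724 to 915 CPM. Genes of a list did not all move with its sum. Log2 differences ran from -12.7 to 1.93 among border macrophage and monocyte markers, with Ly6c2 at 0 in 1B and not in 1A. They ran from -1.36 to 2.42 among endothelial and from -3.05 to 3.36 among lymphocyte markers. The part of these cells in the differences was not tested. The stronger responses of 1B above rest on the same Control libraries.

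Culture for 21 days in place of 10 (1C against 1A) moved the call of 1 gene. H2-Q7 was called higher (2.95-fold, adjusted p = 0.0234), where 13.1% of all genes were higher and 7.91% lower. The H2-Q7 libraries overlapped, at 2.42, 2.77 and 7.67 CPM in 1A and 11.7, 6.83 and 18.2 CPM in 1C, and the call was lost without replicate 1 or 2 of 1A or replicate 1 or 3 of 1C, in which case 0 genes were called. H2-Q6 had a similar fold of 2.97 that did not pass (adjusted p = 0.0587). The other 8 lay between -0.061 (H2-D1) and 0.46 (H2-Q4) on the log2 scale, and the interval for H2-K1 was -0.41 to 0.44. Markers of other cells moved between these Controls. Fibroblast and mural markers summed to 2.30 to 3.77 CPM in 1A and 47.4 to 97.2 CPM in 1C, with 5 of 8 called higher, neutrophil markers to 43.0 to 60.8 and 13.4 to 28.6 CPM, and oligodendrocyte markers to 80.1 to 87.4 and 96.7 to 175 CPM. Border macrophage and monocyte markers summed to 524 to 549.7 CPM in 1A and 685 to 732 CPM in 1C, with log2 differences of single genes from -3.19 to 0.75. The part of these cells in the H2-Q7 difference was not tested.

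**Figure D3:**
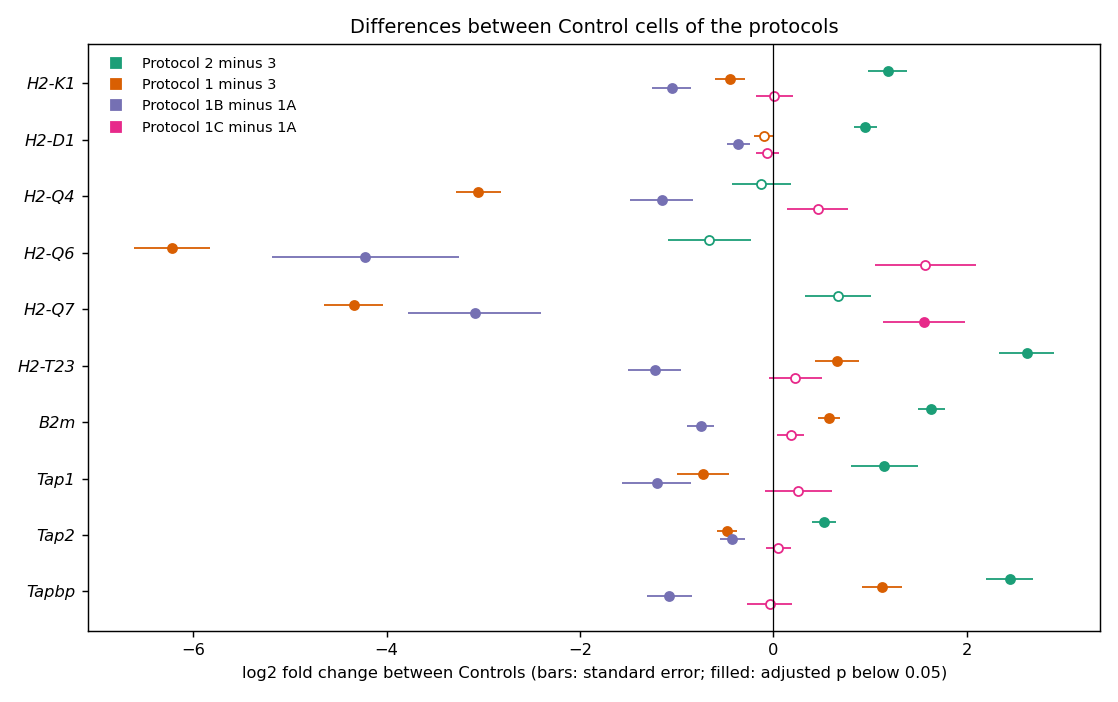
Log2 fold change between Control groups (x axis, bars are standard errors) for each gene (y axis), from the edgeR fit of the 15 Control libraries; filled points passed adjusted p below 0.05. Protocol 1B minus 1A lies left of 0 for all 10 genes, and Protocol 1 minus 3 runs from -6.22 for H2-Q6 to 1.12 for Tapbp.

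Ordered by mean level over the 10 groups, the genes fell into 3 patterns. H2-K1, H2-D1 and H2-T23 were highest in Controls of Protocol 2, followed by the HMGB1 group of that protocol, with no gap to the HMGB1 group of Protocol 1C in the next place. B2m, Tap1, Tap2 and Tapbp were highest in the HMGB1 group of 1C, with no gap for B2m and with a gap to the next group for the other 3. H2-Q4 and H2-Q7 were highest in the HMGB1 group of Protocol 2 and H2-Q6 in Controls of Protocol 3, none with a gap to the next group. The lowest group was Controls of 1B for 8 of the 10, with a gap above it for H2-K1, H2-Q4, H2-Q6, H2-Q7, Tap1 and Tap2 and none for H2-D1 and H2-T23. For B2m and Tapbp the lowest was Protocol 3 Control. B2m of 1B Controls could not be set apart from it, and Tapbp of 1B Controls was above it. Across the 10 group means of log2 CPM, H2-T23 and B2m moved most alike (Pearson r = 0.990), then H2-Q6 and H2-Q7 (0.980) and Tap1 and Tap2 (0.977). H2-Q6 and Tapbp were least alike (0.099). The 10 means come from 5 protocols with a Control and an HMGB1 group each, and these values describe the groups and no more.

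Per length, the heavy chain transcripts were mostly H2-D1 and H2-K1 in every group, and the rest of the mixture differed by source. Counts were divided by the gene length of the table, and each chain was taken as a share of the 6 heavy chains. In Controls of Protocol 1B, H2-D1 made up 67.0 ± 1.94% and H2-K1 27.4 ± 1.48%. With HMGB1 they were at 53.9 ± 0.824% and 35.1 ± 0.417%. The 3 Q chains together were 1.08 ± 0.0258% of heavy chain transcripts in Controls of 1B, 1.72 ± 0.475% in 1A and 2.77 ± 0.624% in 1C. In the adult Controls they were 7.21 ± 0.486% in Protocol 2 and 17.2 ± 0.818% in Protocol 3. The ranges of the 3 adult libraries did not overlap between Protocols 2 (6.83 to 7.76%) and 3 (16.4 to 18.1%), or with any neonatal Control. With HMGB1 the Q share was 4.39 ± 0.166% in 1B, 4.38 ± 0.352% in 1A and 6.33 ± 0.490% in 1C, and it was 8.14 ± 0.589% in Protocol 2 and 17.4 ± 0.298% in Protocol 3. H2-T23 went the other way between the adult preparations, at 9.01 ± 0.132% in Protocol 2 and 2.91 ± 0.0256% in Protocol 3 Controls. Protocol 3 thus held the largest share of Q chains and the smallest of Qa-1 among the Control groups.

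**Figure D4:**
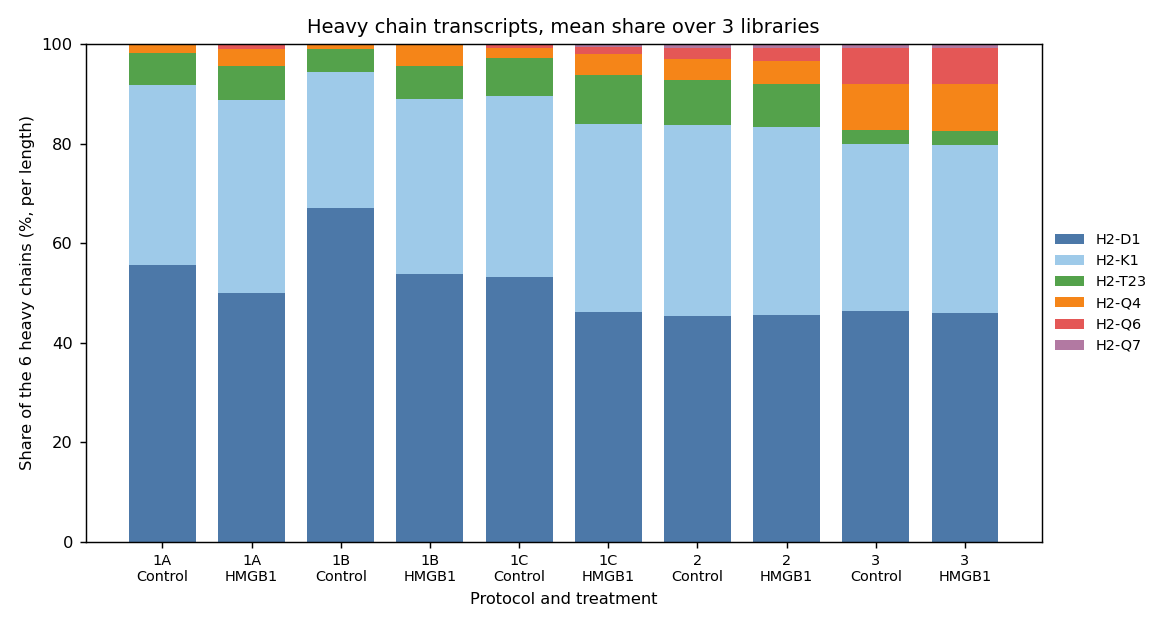
Mean share of each heavy chain among the 6 (y axis, percent of counts per kilobase, 3 libraries each) for the 10 groups (x axis). H2-Q4, H2-Q6 and H2-Q7 together take 17.2% in Controls of Protocol 3 and 1.08% in Controls of Protocol 1B.

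Ratios within a library need no scaling between libraries. H2-K1 to H2-D1, per length, was 0.410 ± 0.0338 in Controls of 1B and 0.652 ± 0.0176 with HMGB1, 0.652 ± 0.0809 and 0.782 ± 0.0390 in 1A, and 0.687 ± 0.0716 and 0.822 ± 0.00883 in 1C. The groups did not overlap in any of the 3. Tap1 to Tap2 was 0.959 ± 0.0609 in Controls of 1B and 2.26 ± 0.151 with HMGB1. It went from 1.59 ± 0.447 to 2.53 ± 0.205 in 1A and from 1.85 ± 0.474 to 2.97 ± 0.256 in 1C. B2m to the 6 heavy chains went from 1.74 ± 0.0380 to 1.57 ± 0.106 in 1B, from 1.87 ± 0.0372 to 1.71 ± 0.0258 in 1A and from 2.14 ± 0.240 to 1.86 ± 0.0312 in 1C. Each of these 9 changes gave p = 0.1 in the two-sided exact permutation test, the smallest that 3 against 3 libraries allow, and 0.167 after Benjamini-Hochberg adjustment over the 15 tests, so none passed. In Protocol 2 each of the ratios gave exact p = 0.2, and in Protocol 3 0.9, 0.6 and 0.6. Protocol 3 stood apart in the last ratio, at 0.954 ± 0.0458 in Controls and 1.05 ± 0.168 with HMGB1, while the other 8 groups lay between 1.43 and 2.14. Its RNA integrity was reported as lower than that of Protocol 2. B2m is 860 bases long and the heavy chains 2085 to 4265 bases, and the part of RNA quality in this ratio was not tested.

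**Figure D5:**
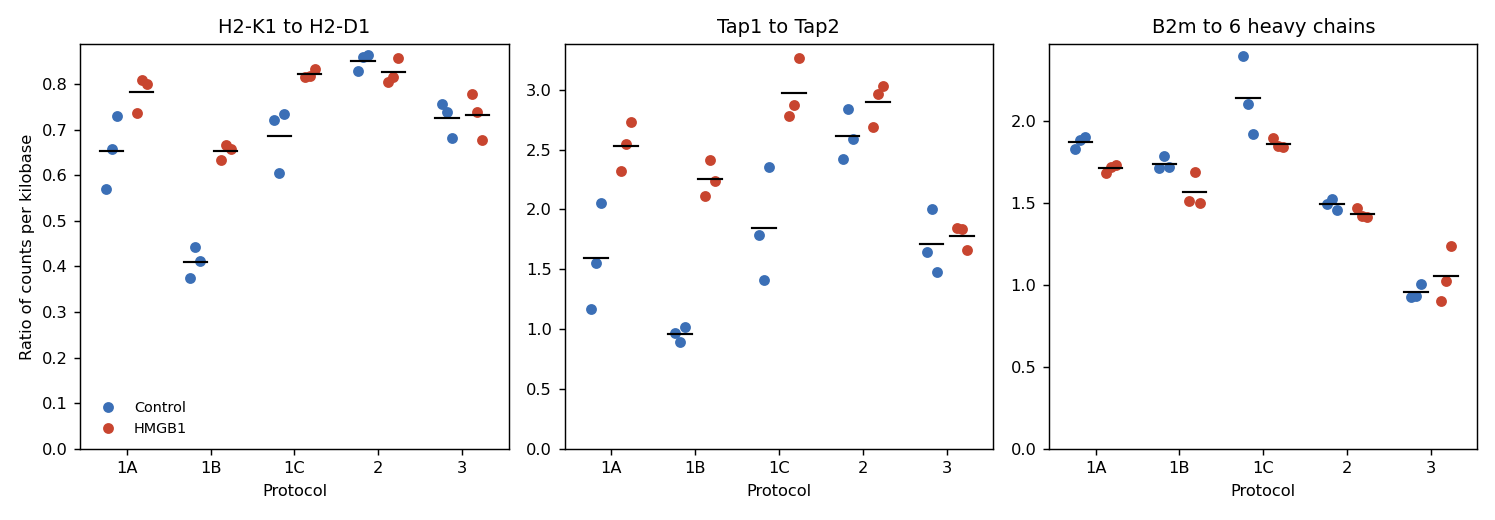
Ratios of counts per kilobase within each library (y axis) by protocol (x axis), with Control in blue, HMGB1 in red and a line at the mean of 3 libraries. In Protocols 1A, 1B and 1C the red points lie above the blue for H2-K1 to H2-D1 and for Tap1 to Tap2, and below them for B2m to the 6 heavy chains.

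The genes that feed the pathway with peptide were also followed. The immunoproteasome, whose subunits Psmb8, Psmb9 and Psmb10 replace the constitutive ones and favour class I ligands, was called higher in all 5 of its listed genes in 1A, 1B and 1C (median log2 change 1.46, 2.53 and 1.97), where 29.7%, 29.8% and 28.4% of all genes were called higher. These shares are also the background of the next counts. In Protocol 1B Psmb10 went from 54.4 to 313 CPM (2.53 ± 0.067) and Psmb9 from 17.2 to 100.1 CPM (2.54 ± 0.10). The constitutive subunits rose as well, all 3 of 3 in each neonatal protocol, by less: Psmb6 by 1.07, Psmb5 by 0.61 and Psmb7 by 0.55 in 1B. Of 5 loading and trimming genes, all 5 were higher in 1A and in 1B and 2 in 1C. Tapbpl, a tapasin relative that edits peptides, rose by 1.10, 2.10 and 1.56, and the general chaperone Calr by 0.35 and 0.30 in 1A and 1B, while in 1C its change of 0.22 did not pass. In Protocols 2 and 3 edgeR called 0 of these 13 genes, and 0 had an unadjusted p under 0.05. Few genes were called there at all, 1.21% higher and 0.283% lower in Protocol 2, and 0.123% and 0% in Protocol 3. In Controls the immunoproteasome genes were lower in 1B than 1A in 5 of 5 (12.6% of all genes) and higher in Protocol 2 than 3 in 5 of 5 (40.1% of all genes), Psmb10 at 133 and 23.8 CPM.

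Of 13 other class I and class I-like chains, 9, 9 and 10 were tested in 1A, 1B and 1C. In 1A 5 were higher and 3 lower, in 1B 5 and 2, and in 1C 6 and 3, where 29.7%, 29.8% and 28.4% of all genes were higher and 31.6%, 32% and 31.8% lower. H2-M2, a non-classical heavy chain, was at 20.2 to 36.1 CPM in Controls of 1C and at 590.3 to 601 CPM with HMGB1 (log2 4.34 ± 0.21). H2-T22, a ligand of gamma-delta T cells, rose by 2.81 in 1B and H2-T10, its near copy, by 2.91. Mr1, which presents vitamin B metabolites of microbes, fell by 2.02 on the log2 scale in 1A, 1.74 in 1B and 1.92 in 1C. Hfe, an iron regulator, fell by 1.05 in 1A, and Fcgrt, the neonatal Fc receptor, fell by 0.68 there. In Protocols 2 and 3 edgeR called 0 of the 11 and 10 tested, with 2 at an unadjusted p under 0.05 in each. The shares of all genes called there were 1.21% and 0.123% higher and 0.283% and 0% lower.

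Among 12 transcription factors of class I genes, 9 were higher and 2 lower in 1A, 9 and 2 in 1B, and 10 and 2 in 1C (29.7%, 29.8% and 28.4% of all genes were higher and 31.6%, 32% and 31.8% lower). Irf1 rose from 26.5 to 642 CPM in 1B, and Nlrc5, the class I transactivator, from 25.8 to 449 CPM. Nfkb1 rose by 2.53, 2.93 and 3.10 in the neonatal protocols and by 0.49 in Protocol 2 (adjusted p = 0.00114, edgeR), the 1 factor of the 12 called there. Of all genes, 1.21% were called higher and 0.283% lower in Protocol 2, and 0.123% and 0% in Protocol 3. In Protocol 3 edgeR called 0 of the 12, with 0 at an unadjusted p under 0.05. Nfkb1 was there at 2126 CPM in Controls and 2314 CPM with HMGB1, against 81.2 CPM in Controls of Protocol 2. In the Controls Nlrc5 and Stat2 were lower in 1B than in 1A (log2 difference -1.22 and -1.87), while Nfkb1 (-0.12) did not pass. Ifnb1, the interferon-beta gene, was at 0 to 0.107 CPM in Controls of 1C and at 8.46 to 17.2 CPM with HMGB1. It was at 0 in all 3 Controls of 1B and at 1.66 to 3.28 CPM with HMGB1. In Protocol 3 it was already at 8.21 to 12.04 CPM in Controls and at 30.5 to 36.2 CPM with HMGB1 (log2 1.76 ± 0.13, adjusted p = 0.000104), the only interferon gene of 6 called in an adult protocol. Ifng was at 0 in all groups but those of Protocol 3, where it was at 0.638 to 1.31 CPM in Controls.

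Class II genes, which serve the presentation of peptides taken up from outside, gave other counts. In 1A 1 of 8 was higher and 1 lower, in 1B 1 of 5 was higher, and in 1C 6 of 8 were higher, against 29.7%, 29.8% and 28.4% of all genes higher and 31.6%, 32% and 31.8% lower. Cd74, the invariant chain of class II, was at 47.1 CPM in Controls of 1A, 4.24 in 1B, 33.2 in Protocol 2 and 1413 in Protocol 3. All 9 class II genes were lower in the neonatal Controls than in Protocol 3 (42.9% of all genes), and 8 were lower in Protocol 2 than in Protocol 3 (37.2% of all genes), where 7 class I genes were higher and 0 lower. H2-DMb1 was the exception (1.41). In 1B Controls 6 of 9 class II genes were lower than in 1A (12.6% of all genes).

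Apart from the 10 class I genes, 9491 protein-coding genes with at least 10 CPM in their highest group were compared with the mean profile of the 10 class I genes, each scaled over the 10 group means of log2 CPM. Genes of the other lists above were not left out of this search. The most alike were Ifi206 (Pearson r = 0.992), BC147527 (0.985), Ifi214 (0.982), Ifi44 (0.973) and Ms4a4c (0.972). Of the class I genes themselves H2-K1 was closest to that profile (0.980) and H2-Q6 farthest (0.648). Ifi206 was highest in the HMGB1 group of 1C, at a mean of 537 CPM, and lowest at 1.49 CPM.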

How the data were processed

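RNA from 30 libraries of mouse microglia, 3 for each of 10 groups, was sequenced as NEBNext Ultra II libraries. The deposited table holds whole-number read counts per gene, which the authors made with HISAT2 2.0.5 and featureCounts 1.5.0-p3 according to the submitters' processing notes; the genome build, strand setting and treatment of multiply mapped reads are not given in the sources used here. Groups were taken from the labels. Genes were filtered with filterByExpr, scaled by TMM and tested with edgeR 4.0.16 (quasi-likelihood F test, robust, Benjamini-Hochberg adjusted p below 0.05, R 4.3.3): 6 libraries per HMGB1 response, 15 Control libraries for differences between protocols, and all 30 for differences in response. Adjustment was over all genes tested. Errors of log2 fold changes are standard errors, and 95% intervals use the t quantile of the test. Alternatives were DESeq2 1.42.0 (its Wald test, and its size factors in edgeR), no filter, a minimum log2 fold change of 1, other sets of libraries, the replicate number as a block, and each library left out in turn.

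The class I genes, the other gene lists and the marker lists were chosen with earlier results of these data known. All 10 class I genes were named; of the other lists, at most 4 genes with the smallest adjusted p that passed and 2 with the highest level that did not. The tests were checked on simulated data. Same-numbered Control and HMGB1 libraries deviated together in Protocol 1B (r of 0.18 to 0.41), Protocol 2 (0.28 to 0.44) and Protocol 3 (0.19 to 0.28), which is taken from the data and not from the labels. The r was smaller in 1A (0.028 to 0.11) and 1C (0.091 to 0.14). Every Control of 1C was still most like the HMGB1 library of its own number, as were those of 1A except replicate 1. Figures were drawn with matplotlib 3.10.9 in Python 3.11.15.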

Additional observations from a re-analysis of the deposited data

Results flagged for a closer look

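The results below differed between protocols by a test of the difference itself (edgeR quasi-likelihood interaction over 30 libraries, adjusted p below 0.05). The response to HMGB1 was smaller in Protocol 2 than in Protocol 1 for all 10 genes. The difference in log2 response was -3.32 for Tap1, -2.83 for H2-Q6, -2.69 for H2-Q7, -2.63 for Tap2, -2.23 for H2-Q4, -1.79 for Tapbp, -1.33 for H2-T23, -1.16 for H2-K1, -0.86 for B2m and -0.73 for H2-D1.

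It was also smaller in Protocol 3 than in Protocol 1, by a comparison that shares the Protocol 1 libraries. The difference was -3.47 for Tap1, -3.13 for H2-Q6, -2.92 for H2-Q7, -2.69 for Tap2, -2.38 for H2-Q4, -1.67 for Tapbp, -1.32 for H2-T23, -1.18 for H2-K1, -0.80 for H2-D1 and -0.73 for B2m.

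Protocol 1B responded more than 1A in Tap1 (1.57), H2-Q4 (1.24), Tapbp (1.13) and Tap2 (0.95). Protocol 1C responded more than 1A in Tap2 (0.68). No group had enough libraries for a search for single outlying values.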

How the results depend on the processing

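All counts here are of the 10 class I genes. The counts of genes that rose with HMGB1 in Protocols 1B and 1C, the responses lower in Protocols 2 and 3 than in Protocol 1, and the Controls lower in Protocol 1 than in Protocol 2 stayed within 1.5 times their value under every alternative run. With a minimum log2 fold change of 1, 1 gene was higher and 3 lower in Protocol 1 than Protocol 3 Controls, and 0 responded more in 1C than 1A. Without a filter, 1 gene was lower in Protocol 2 than Protocol 3 Controls (also 1 with only the groups compared), 3 were higher in 1C than 1A Controls (2 in the DESeq2 Wald test and 0 with only the groups compared), and 8 and 4 responded more in 1B and 1C than in 1A (7 and 2 in the DESeq2 Wald test). With the replicate block 1 gene rose in Protocol 2, and 8 and 4 responded more in 1B and 1C than in 1A. Same-numbered libraries of 1A correlated only weakly (r of 0.028 to 0.11). In Protocol 1A the block called H2-T23 (0.73), and every other response and Control count kept its value. Leaving out 1 library gave 4 to 10 genes higher in 1A, 6 to 10 lower in 1B than 1A Controls, 0 to 2 higher in 1C than 1A Controls and 1 to 4 responding more in 1C than 1A. The cause of these changes was not tested, beyond the fewer libraries or stricter fold that define some of the alternatives.

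Changes of sign were found only for differences that did not pass. Tapbp in Protocol 2 was 0.0035 with all 30 libraries. H2-D1 in Protocol 1 minus Protocol 3 Controls was 0.028 without a filter and 0.030 with only the groups compared, and H2-Q4 in Protocol 2 minus Protocol 3 was 0.0095 without a filter. H2-K1 in 1C minus 1A Controls was -0.011 with DESeq2 size factors and in the Wald test, and -0.019 with only the groups compared. In the response of Protocol 3 minus Protocol 2, H2-K1 was 0.027 in both DESeq2 settings and H2-T23 was -0.017 without a filter. H2-Q6 in the response of 1C minus 1A was 0.0089 in the Wald test and 0.0047 with the block. With 1 library left out, the log2 values in Protocol 2 ran from -0.13 to 0.044 (H2-K1), -0.069 to 0.070 (H2-D1), -0.0075 to 0.25 (H2-Q4), -0.039 to 0.23 (Tap1), -0.14 to 0.036 (Tap2) and -0.077 to 0.067 (Tapbp). In Protocol 3 they ran from -0.15 to 0.081 (H2-K1), -0.12 to 0.019 (H2-D1), -0.088 to 0.068 (H2-Q4), -0.12 to 0.043 (H2-Q6), -0.17 to 0.077 (H2-Q7), -0.11 to 0.0077 (H2-T23) and -0.12 to 0.085 (Tap1). Control values ran from -0.16 to 0.017 for H2-Q4 in Protocol 2 minus 3 and, in 1C minus 1A, from -0.22 to 0.23 (H2-K1), -0.23 to 0.053 (H2-D1), -0.067 to 0.54 (H2-T23), -0.11 to 0.68 (Tap1), -0.079 to 0.20 (Tap2) and -0.26 to 0.25 (Tapbp). Response differences ran from -0.14 to 0.11 (H2-K1), -0.15 to 0.0018 (H2-D1), -0.073 to 0.096 (H2-T23) and -0.16 to 0.018 (Tap2) in Protocol 3 minus 2, and from -0.19 to 0.60 (H2-Q4) and -0.76 to 0.51 (H2-Q6) in 1C minus 1A. The log2 ratios of Protocol 3 ran from -0.036 to 0.065 (H2-K1 to H2-D1) and -0.029 to 0.19 (Tap1 to Tap2). Of 100 group levels, 16 moved by more than 1 SD under DESeq2 size factors.

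Groups of 3 libraries limit every test, the few counts of H2-Q6 and H2-Q7 in Controls of Protocol 1B limit their folds, and shared sequence limits the division of reads among the Q genes.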
